A study of Mus musculus with 9 samples.

Results

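The genes described here are 10 markers of hepatic stellate cells and myofibroblasts (Acta2, Tagln, Des, Vim, Thy1, Pdgfra, Pdgfrb, Lum, Dcn and Postn), measured in whole liver. They were chosen as known markers, and a probe was taken where its RefSeq accession maps to 1 of these symbols. Each gene had 1 probe, so 10 of the 55681 non-control probes on the array were used, for 10 of 20972 named genes. All 10 were well above background on all 9 arrays and all were among the 26278 probes tested. Liver RNA came from 9 male mice aged 20 weeks, with 1 array per mouse and 3 mice per group. STAM mice are C57B/6 J males that received low-dose streptozotocin as newborns, which destroys insulin-secreting beta cells, followed by a high-fat diet, and they develop diabetes, steatohepatitis and liver tumours. STAM-NON mice had no further treatment, STAM-INS mice received the insulin analogue glargine by injection under the skin, and Normal mice were lean controls that carry neither the streptozotocin nor the high-fat diet. Because both STAM groups share streptozotocin and diet, neither agent can be told apart from the other in the comparisons with Normal. Whether a piece of liver held tumour tissue is not given in the sources used here.

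Hepatic stellate cells lie between the sinusoidal endothelium and the hepatocytes, where they store vitamin A as retinyl esters. When the liver is injured they, together with portal fibroblasts, can become myofibroblasts, which respond to platelet-derived growth factor (PDGF), assemble actin stress fibres and secrete the matrix of a fibrotic scar. The 10 markers cover these roles: Acta2 and Tagln belong to the contractile apparatus, Des and Vim form intermediate filaments, Thy1 is a surface protein of fibroblasts that T cells also carry, Pdgfra and Pdgfrb are PDGF receptors, and Lum, Dcn and Postn are secreted matrix proteins. Several are not private to these cells: smooth muscle of vessel walls makes Acta2, Tagln and Des, and macrophages and endothelial cells make Vim.

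Levels are given as centred log2 signal, which is the log2 processed signal of a spot after subtraction of its array's 75th percentile, so that a probe at that percentile reads 0 and a step of 1 is a doubling. Levels of different probes were not compared with each other. A difference was called when its adjusted p from limma, over all 26278 probes, was under 0.05. In bulk tissue, fewer cells of a type and less RNA per cell cannot be told apart. The share of spots well above background was 47.8% to 63.1% in STAM-NON, 47.8% to 65.0% in STAM-INS and 46.2% to 51.1% in Normal. The highest shares were on STAM-INS replicate 1, STAM-NON replicate 3 and STAM-NON replicate 1. The Normal livers were hybridised on a slide of their own, so slide and group cannot be told apart in the comparisons with Normal. STAM-INS and STAM-NON shared 1 slide, but not its rows evenly. All STAM-NON arrays and STAM-INS replicate 1 were in row 1, and STAM-INS replicates 2 and 3 were in row 2.

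The table of RefSeq promoters (assembly GRCm38.p6) held a start site for 5 of the 10 genes. Promoters of 3 are shown because their genes stand for the contrasting patterns below: Acta2, which varied within every group, Postn, which differed most between STAM-NON and Normal, and Vim, which came next to the threshold. Each window is the 250 bases before the start site, written 5′ to 3′ on the strand of the gene. Acta2 is at chr19:34255374-34255623 (minus strand), Vim at chr2:13574061-13574310 (plus strand) and Postn, at the second of 2 start sites, at chr3:54360857-54361106 (plus strand). Capitals mark matches to 3 motifs, searched on both strands. The window at the first Postn start site held none of the 3, and the second is shown because it held matches. The windows of Des and Pdgfra, which are not shown, also held none of the 3.
Acta2 promoter: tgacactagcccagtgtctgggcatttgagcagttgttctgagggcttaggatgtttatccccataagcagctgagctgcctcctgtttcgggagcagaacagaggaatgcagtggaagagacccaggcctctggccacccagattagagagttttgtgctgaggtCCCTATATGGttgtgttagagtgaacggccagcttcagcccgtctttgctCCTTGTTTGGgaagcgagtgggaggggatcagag
Postn promoter: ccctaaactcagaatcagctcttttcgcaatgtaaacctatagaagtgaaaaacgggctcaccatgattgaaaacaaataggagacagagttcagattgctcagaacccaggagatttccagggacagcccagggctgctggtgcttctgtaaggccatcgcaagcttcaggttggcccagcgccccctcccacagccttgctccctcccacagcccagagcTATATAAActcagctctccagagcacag
Vim promoter: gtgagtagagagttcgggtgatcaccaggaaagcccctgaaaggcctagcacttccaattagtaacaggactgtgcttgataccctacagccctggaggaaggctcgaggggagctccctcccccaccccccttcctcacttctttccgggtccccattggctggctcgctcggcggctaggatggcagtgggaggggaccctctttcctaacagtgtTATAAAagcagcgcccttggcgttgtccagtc
The motif sought in Acta2 was a CArG-like box, CC and GG around 6 inner letters of which at least 5 are A or T, the kind of site that serum response factor binds in smooth muscle genes. Acta2 had 2 such boxes, CCCTATATGG at 84 to 75 and CCTTGTTTGG at 34 to 25 bases before the start, whereas 8.59% of all 32851 windows of this length held at least 1. Postn had TATATAA at 28 to 22 bases before the start, a motif found in 3.04% of windows, which overlaps a TATAAA, and Vim had TATAAA at 32 to 27 bases, found in 12.4%. A match is a description of the letters and not evidence that a factor binds there.

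The first comparison, of STAM-NON with Normal, asked how the markers differ in the untreated disease model. Of the 10 markers, 2 were called higher in STAM-NON (Lum and Postn) and none lower, against 6.3% of all probes called higher and 16.1% called in either direction. The difference was above 0 for 9 of 10 markers, the exception being Acta2, against 36.8% of all probes. The median difference over the markers was 0.57, whereas over all probes it was -0.14, and an unadjusted p under 0.05 with a higher mean was reached by 6 markers, against 12.5% of all probes. Groups did not overlap for 4 markers (Postn, Lum, Vim and Thy1), all higher in STAM-NON, against 13.2% of all probes higher without overlap. Of the 4220 probes called, 1655 were higher and 2565 lower, but this split depends on the scaling: it was 1538 higher and 1428 lower with quantile normalisation, 2147 and 984 when the percentile was that of probes detected on every array, and 2737 and 458 with centring on spike-in probes, which moved the median over all probes to 0.18. The sign held for the same 9 markers under each of these scalings, and that of Acta2 turned under the last 2.

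**Figure D1:**
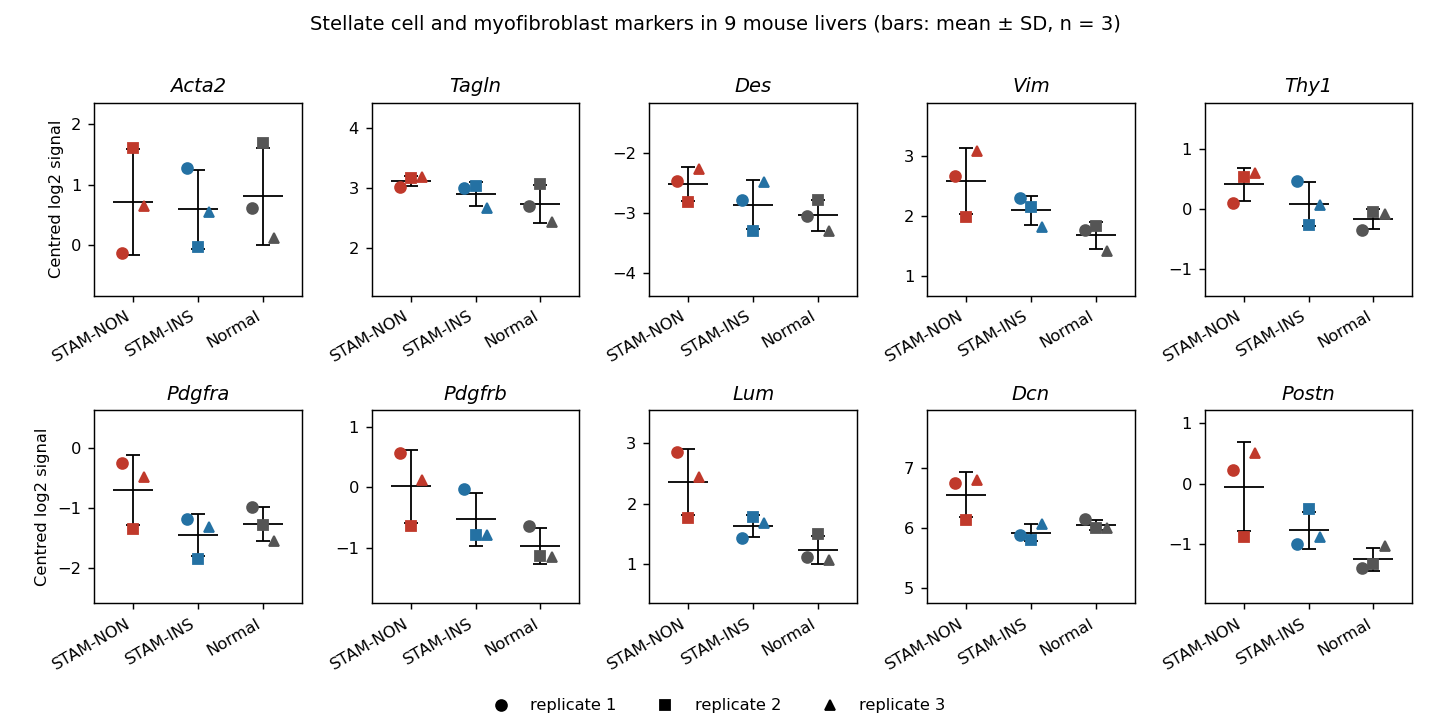
Centred log2 signal of the 10 markers, 1 panel per gene with a vertical span of 3.2 in each; points are single mice, shaped by replicate number, and black bars are the mean ± SD of 3 mice. The STAM-NON points of Lum, Postn, Vim and Thy1 all sit above the Normal points, while the points of Acta2 spread equally widely in all 3 groups.

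Among the matrix proteins, Postn and Lum gave the 2 differences that were called. Postn, which encodes periostin, a matricellular protein of remodelling tissue, was 0.22, -0.88 and 0.51 in the 3 STAM-NON livers (replicates 1, 2 and 3, the order used throughout). It was -1.01, -0.43 and -0.89 in STAM-INS and -1.41, -1.34 and -1.04 in Normal. Every STAM liver was above every Normal liver, although STAM-NON replicate 2 stood lower than the highest STAM-INS liver. STAM-NON exceeded Normal by 1.21 ± 0.34 (difference on the log2 scale ± SE, limma adjusted p = 0.0456), which is 2.31-fold.

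Lum, which encodes lumican, a small leucine-rich proteoglycan that binds collagen fibrils, was 2.85, 1.77 and 2.45 in STAM-NON. It was 1.42, 1.78 and 1.67 in STAM-INS and 1.12, 1.503 and 1.06 in Normal. STAM-NON replicates 1 and 3 were above all other livers and replicate 2 lay within the STAM-INS range, but still above the Normal livers. The difference from Normal was 1.13 ± 0.27 (limma adjusted p = 0.0286).

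Both calls were lost in some fits that left out a single array. Lum was no longer called without STAM-NON replicate 1 (difference 0.88, limma adjusted p = 0.0705), STAM-NON replicate 3 (1.08, 0.0741), Normal replicate 1 (1.07, 0.0852), Normal replicate 2 (1.26, 0.0565) or Normal replicate 3 (1.04, 0.0892). Postn lost its call without any 1 of the arrays other than STAM-NON replicate 2, with a difference of 0.93 to 1.32 and a limma adjusted p of 0.0607 to 0.124. Without a STAM-INS array, the Postn difference stayed at 1.21. In the fits where a call was lost, 3.56% to 12.7% of all probes were called, against 16.1% with all arrays. Without STAM-NON replicate 2 itself, Lum differed by 1.42 and Postn by 1.63, and 6 markers were called (Lum, Dcn, Pdgfra, Vim, Postn and Pdgfrb), against 18.7% of all probes called in that fit. Leaving out the 3 arrays with the most spots above background, an alternative chosen after seeing the data, left STAM-NON with replicate 2 alone. The differences were then 0.54 for Lum and 0.38 for Postn.

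Dcn encodes decorin, a small proteoglycan that coats collagen and binds transforming growth factor beta. It was 6.74, 6.13 and 6.79 in STAM-NON, 5.89, 5.80 and 6.07 in STAM-INS and 6.14, 6.0 and 5.997 in Normal. STAM-NON replicates 1 and 3 were the highest of the 9 livers, while replicate 2 was just below the highest Normal liver. The difference between STAM-NON and Normal, 0.51 ± 0.18, was not called (limma adjusted p = 0.0898).

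The receptors for PDGF, the best known mitogen of stellate cells, were not called. Pdgfrb was 0.57, -0.65 and 0.12 in STAM-NON, -0.02, -0.79 and -0.79 in STAM-INS and -0.64, -1.15 and -1.16 in Normal. Only STAM-NON replicate 2 overlapped the Normal range, by less than 0.01. Pdgfrb differed by 0.99 ± 0.34 (limma adjusted p = 0.0754).

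Pdgfra, the receptor subunit that binds the widest range of PDGF forms, was -0.25, -1.35 and -0.49 in STAM-NON, -1.18, -1.84 and -1.31 in STAM-INS and -0.99, -1.28 and -1.56 in Normal. Again STAM-NON replicates 1 and 3 were above all other livers and replicate 2 lay inside the Normal range. The difference from Normal was 0.58 ± 0.31 (limma adjusted p = 0.208).

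Among the filament and surface markers, Vim (vimentin) was 2.67, 1.99 and 3.08 in STAM-NON, 2.30, 2.16 and 1.82 in STAM-INS and 1.77, 1.84 and 1.43 in Normal. The STAM-NON and Normal livers did not overlap, and the difference of 0.90 ± 0.27 just missed the threshold (limma adjusted p = 0.055). With normexp background correction, spike-in centring, a filter for probes detected on all arrays, or a robust trended fit, Vim was called, with a limma adjusted p of 0.0348, 0.0436, 0.0462 and 0.0412.

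Thy1 (CD90) was 0.10, 0.54 and 0.59 in STAM-NON, 0.47, -0.26 and 0.07 in STAM-INS and -0.35, -0.05 and -0.08 in Normal. All STAM-NON livers were above all Normal livers, and here replicate 1 was the lowest of its group. Its difference was 0.57 ± 0.21 (limma adjusted p = 0.0954). With the slide row as a block it was 0.005, where the row term rests on the STAM-INS arrays alone. T cells carry Thy1 too, and of 7 tested T and NK cell markers none was called in any comparison on its main probe, although a second probe of Nkg7 was higher than in Normal in STAM-NON by 1.504 (limma adjusted p = 0.0146) and in STAM-INS by 0.96 (limma adjusted p = 0.0491). For STAM-NON minus Normal, 4 of those 7 genes were above 0 and 3 below, with a median difference of 0.41. The summed signal of those 7 genes, relative to the 75th percentile of the array, was 25.1 to 46.8 in STAM-NON, 30.3 to 45.8 in STAM-INS and 41.2 to 42.9 in Normal. That sum came mostly from Cd4, which differed by -0.46 in STAM-NON, and so says little of the other genes.

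Des encodes desmin, the classical rodent stellate cell marker, and was -2.47, -2.82 and -2.27 in STAM-NON, -2.79, -3.30 and -2.49 in STAM-INS and -3.04, -2.78 and -3.30 in Normal. The groups overlapped, and the difference of STAM-NON from Normal was 0.53 ± 0.24 (limma adjusted p = 0.155). Des was dim, with processed signals from 23.1 in a Normal liver to 59.9 in a STAM-NON liver. On STAM-INS replicate 2 a share of 0.7 of its spots was well above background. With normexp background correction the difference of STAM-NON from Normal was 0.12. Its 10 spots per array had an SD of 0.09 to 0.45, and the group SD was 0.28 in STAM-NON and 0.26 in Normal. The value of a liver is the mean over its spots, so the 2 kinds of SD are not directly comparable.

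The contractile markers gave the smallest differences. Tagln, which encodes the actin-binding protein transgelin, was 3.02, 3.16 and 3.18 in STAM-NON, 3.01, 3.04 and 2.67 in STAM-INS and 2.70, 3.07 and 2.44 in Normal. Its STAM-NON livers were the tightest of all marker values in that group (SD 0.09, n = 3), and 1 Normal liver reached their range. The difference was 0.39 ± 0.18 (limma adjusted p = 0.154).

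Acta2 encodes alpha smooth muscle actin, the protein most used to define liver myofibroblasts. It was -0.13, 1.61 and 0.64 in STAM-NON, 1.27, -0.04 and 0.55 in STAM-INS and 0.61, 1.68 and 0.12 in Normal. The range was wide in every group and the 3 groups overlapped fully. STAM-NON minus Normal was -0.10 ± 0.55 (limma adjusted p = 0.912), with a 95% interval of -1.35 to 1.16 that leaves room for a difference of more than a doubling in either direction. The sign of this difference was not stable: it was 0.08 and 0.22 with the percentile over detected probes and with spike-in centring, 0.33 without STAM-NON replicate 1 and 0.34 without Normal replicate 2.

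**Figure D2:**
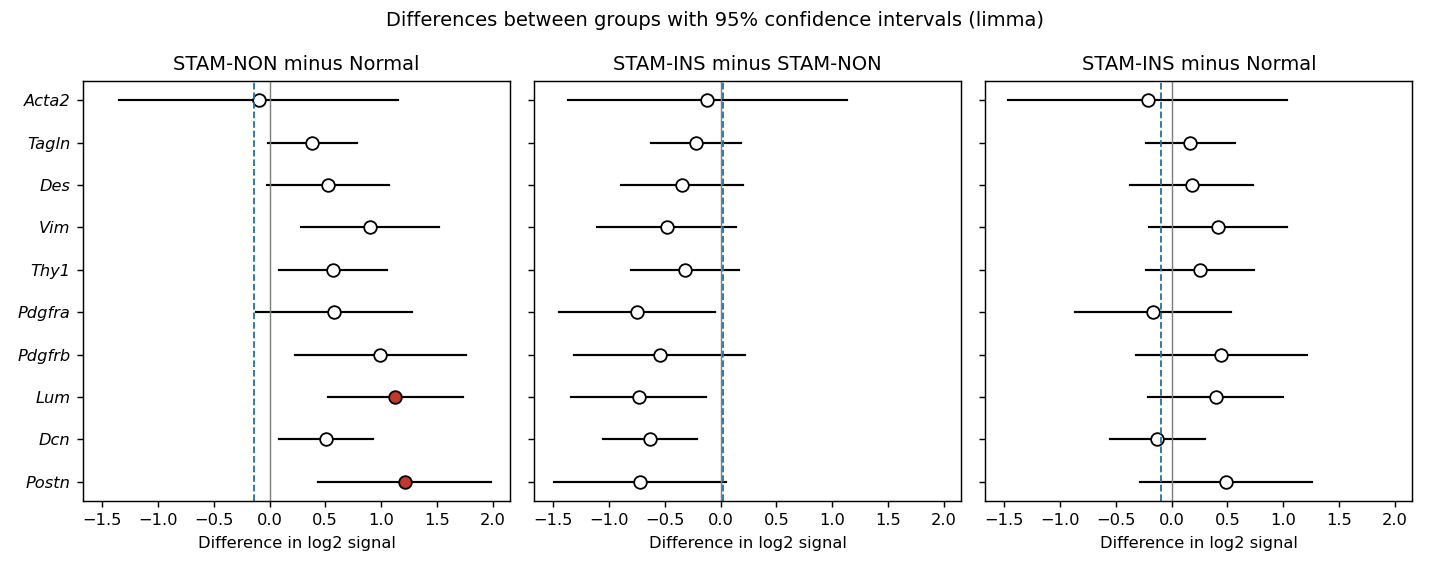
Differences between groups on the log2 scale (horizontal axis) for the 10 markers in the 3 comparisons; circles are limma estimates, filled where the adjusted p is under 0.05, lines are 95% confidence intervals and the dashed line is the median over all tested probes. Lum and Postn are the only filled circles, all 10 estimates for STAM-INS minus STAM-NON lie left of 0, and Acta2 has the widest interval in each panel.

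The spread of Acta2 was unlike that of the other markers. Its residual SD within groups was 0.78, larger than that of 96.1% of tested probes, whereas Tagln had 0.22, larger than 49.3%, and the remaining markers lay between 0.23 and 0.47. Spot noise was far smaller, since the 10 spots of the Acta2 probe on an array had an SD of 0.07 to 0.12. STAM-NON replicate 2, the lowest liver of its group for 7 of 10 markers, was the highest for Acta2.

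Of 13 tested contractile genes, 3 had their highest and lowest livers in common with Acta2. Cnn1, which encodes the smooth muscle calponin, was -3.66, -0.54 and -3.46 in STAM-NON, -2.23, -3.47 and -1.92 in STAM-INS and -1.54, -0.13 and -2.39 in Normal. Actg2, gamma smooth muscle actin, was -3.76, -0.80 and -2.73, then -1.91, -2.99 and -1.95, and -1.73, -0.64 and -2.51 in the same order. Myh11, the smooth muscle myosin heavy chain, was -4.08, -2.49 and -2.87 in STAM-NON, -2.28, -5.55 and -3.04 in STAM-INS and -3.76, -2.10 and -3.31 in Normal, and was well above background on 7 of 9 arrays. In all 4 genes Normal replicate 2 was the highest liver of all, STAM-NON replicate 2 was the highest of its group, and STAM-NON replicate 1 and STAM-INS replicate 2 were the 2 lowest livers. These 3 companions of Acta2 were picked from a list of contractile genes after their values were seen, and none was called in any comparison (limma adjusted p from 0.359 to 0.998). Others of that list did not share these livers: in Tpm2, a tropomyosin gene, STAM-NON replicate 1 was the highest liver of all at 3.19 and STAM-NON replicate 3 was at -0.16. Acta2 and Actg2 are closely similar in sequence, and whether their probes tell the transcripts apart was not tested, since the probe sequences are not used here.

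**Figure D3:**
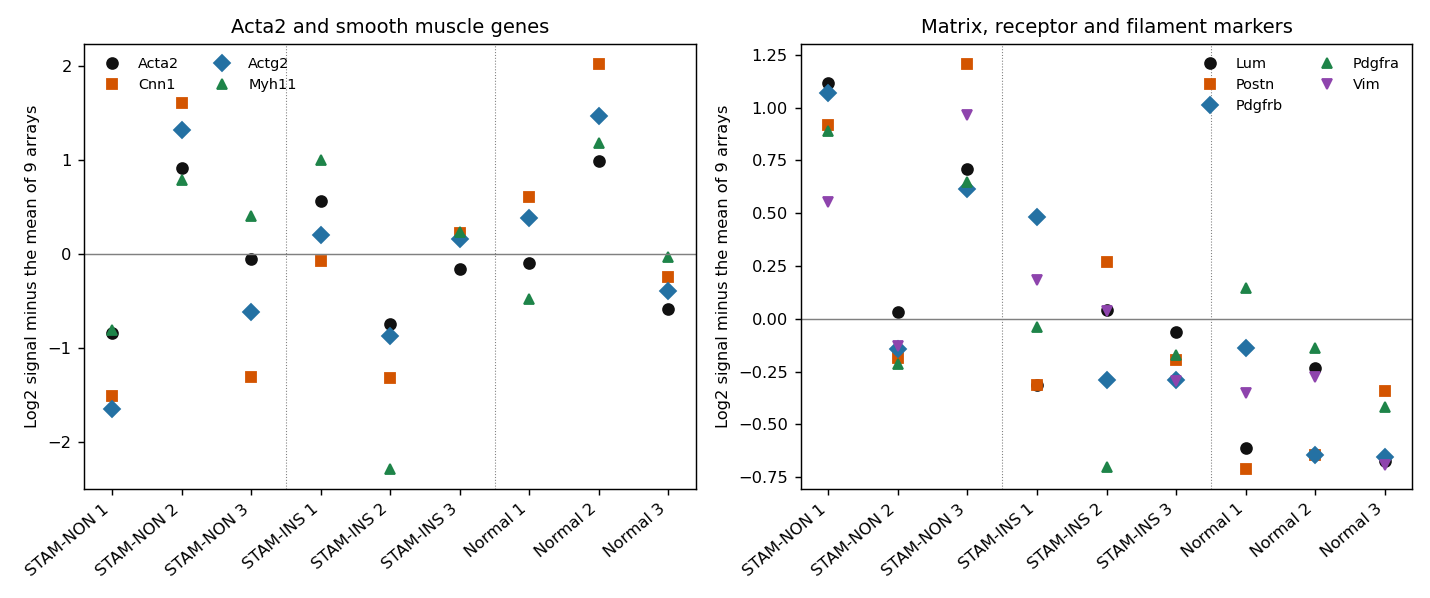
Log2 signal of each liver minus the mean of the 9 livers (vertical axis) for Acta2 with 3 smooth muscle genes (left) and for 5 matrix, receptor and filament markers (right); each point is 1 mouse and dotted lines separate the groups. In the left panel STAM-NON replicate 2 and Normal replicate 2 are high, whereas in the right panel STAM-NON replicates 1 and 3 are high and replicate 2 is close to the mean.

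The comparison of STAM-INS with STAM-NON asked how the markers differ when STAM mice receive insulin. All 10 markers had a lower mean in STAM-INS, as did 45.1% of all probes, with differences from -0.75 to -0.12 and a median of -0.52, against a median over all probes of 0.03. None was called, and 0.0913% of all probes (24 of 26278) were called in either direction. An unadjusted p under 0.05 was reached by 3 markers: Pdgfra at -0.75 ± 0.31 (limma adjusted p = 0.548), Lum at -0.73 ± 0.27 (limma adjusted p = 0.508) and Dcn at -0.64 ± 0.18 (limma adjusted p = 0.465). Of all probes, 4.23% had an unadjusted p under 0.05 and were lower in STAM-INS.

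Dcn was the 1 marker whose groups did not overlap here, with every STAM-INS liver (5.80 to 6.07) below every STAM-NON liver (6.13 to 6.79), against 4.92% of all probes lower without overlap. For Lum, the highest STAM-INS liver (1.778) was just above the lowest STAM-NON liver (1.767). The other differences were -0.73 for Postn, -0.55 for Pdgfrb, -0.49 for Vim, -0.35 for Des, -0.32 for Thy1, -0.22 for Tagln and -0.12 for Acta2, with 95% intervals that included 0. For Postn the interval ran from -1.498 to 0.05 and for Acta2 from -1.37 to 1.13. Leaving out the 3 arrays with the most spots above background left STAM-NON with replicate 2 alone. The sign then turned for Postn (0.22) and Vim (less than 0.01 above 0). No marker was called under any other alternative or with any single array left out. With the slide row as a block, the sign turned for Acta2 (0.56) and Thy1 (0.06). The other markers stayed below 0 with that block, among them Pdgfrb at -0.03. The sign of Acta2 turned without STAM-NON replicate 2 (0.34) or STAM-INS replicate 2 (0.20).

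The comparison of STAM-INS with Normal shares its arrays with the others, so the 3 sets of differences are not independent. No marker was called, whereas 5.16% of all probes were called higher and 13.9% in either direction. No marker reached an unadjusted p under 0.05, against 32.5% of all probes, the lowest limma adjusted p being 0.318, and 7 markers were above 0, against 40.4% of all probes. The differences were 0.49 for Postn, 0.45 for Pdgfrb, 0.42 for Vim, 0.40 for Lum, 0.25 for Thy1, 0.18 for Des and 0.17 for Tagln, and -0.13 for Dcn, -0.17 for Pdgfra and -0.21 for Acta2. Dcn turned to 0.08, less than 0.01 and 0.04 with quantile normalisation, the percentile over detected probes and spike-in centring. Postn alone had groups that did not overlap, against 15.1% of all probes higher without overlap. The 95% intervals were wide, for instance -0.21 to 1.0 for Lum and -0.29 to 1.26 for Postn, so a difference as large as that of STAM-NON for Postn is inside its interval.

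The PDGF ligands were followed beside their receptors. Pdgfb, whose product binds both receptors, was 0.12, -0.77 and 0.04 in STAM-NON, -0.53, -0.92 and -1.04 in STAM-INS and -1.41, -1.27 and -1.60 in Normal. All STAM livers were above all Normal livers, and STAM-NON replicate 2 was again the lowest of its group. Pdgfb was higher in STAM-NON than in Normal by 1.22 ± 0.25 (limma adjusted p = 0.02), and STAM-INS exceeded Normal by 0.60 (limma adjusted p = 0.136).

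Pdgfc was -0.06, -0.36 and 0.07 in STAM-NON, 0.01, 0.70 and 0.23 in STAM-INS and -0.36, -1.05 and -1.01 in Normal. It was higher in STAM-INS than in Normal by 1.12 ± 0.24 (limma adjusted p = 0.0233), and by 0.69 in STAM-NON, which was not called (limma adjusted p = 0.084). Pdgfa differed by 0.50 in STAM-NON (limma adjusted p = 0.056) and 0.36 in STAM-INS (limma adjusted p = 0.136). Pdgfd was well above background on 3 arrays and was not tested. For the 3 tested ligands, the differences of STAM-INS from STAM-NON were -0.62 for Pdgfb, -0.13 for Pdgfa and 0.43 for Pdgfc, and none was called.

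The remaining genes of the same cells were taken from lists written for these cells, with 1 probe per gene, and are described by counts beside the median over all 13386 tested genes, which was -0.11 for STAM-NON minus Normal, 0.03 for STAM-INS minus STAM-NON and -0.07 for STAM-INS minus Normal. Over all 26278 probes, 6.3% were called higher, 16.1% were called in either direction and 36.8% were above 0 for STAM-NON minus Normal. For STAM-INS minus Normal these shares were 5.16%, 13.9% and 40.4%. No gene of any list was called between STAM-INS and STAM-NON, where 0.0913% of all probes were called. Of 18 tested markers of quiescent stellate cells, the vitamin A storing state, none was called between STAM-NON and Normal on its brightest probe and the median difference was 0.08. A second probe of Vipr1, a neuropeptide receptor gene, was lower than in Normal in STAM-NON (-0.42, limma adjusted p = 0.0495) and in STAM-INS (-0.75, limma adjusted p = 0.00854), and a second probe of Ecm1, an extracellular matrix gene, in STAM-INS (-1.02, limma adjusted p = 0.0359). Lrat, the enzyme that makes retinyl esters, was 0.43, -0.65 and 0.61 in STAM-NON, -0.78, -0.55 and -0.56 in STAM-INS and 0.10, -0.34 and 0.03 in Normal, with overlapping STAM-NON and Normal groups (0.20, limma adjusted p = 0.658). Angptl6, an angiopoietin-like secreted protein, was lower in STAM-INS than in Normal by 0.66 ± 0.14 on the log2 scale (limma adjusted p = 0.0209). In STAM-NON Angptl6 differed from Normal by -0.42, which was not called (limma adjusted p = 0.0699).

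Of 13 tested contractile genes, 2 were called higher and 1 lower in STAM-NON than in Normal, against 16.1% of all probes called in either direction. The median difference was -0.10. Flna, the actin cross-linker filamin A, was 3.77, 3.42 and 3.99 in STAM-NON, 3.51, 3.44 and 3.23 in STAM-INS and 2.87, 2.82 and 2.62 in Normal. Both STAM groups were above Normal without overlap, by 0.96 ± 0.16 (limma adjusted p = 0.0133) and 0.63 ± 0.16 (limma adjusted p = 0.0409). Cnn2, a calponin of non-muscle cells, was higher in STAM-NON by 0.85 ± 0.24 (limma adjusted p = 0.0489). A second Cnn2 probe gave 0.45 and was not called (limma adjusted p = 0.0577).

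Tpm1, a tropomyosin, was called lower in STAM-NON by its brightest probe, but its 5 tested probes disagreed: that probe gave -0.65 (limma adjusted p = 0.0396), 2 others were called higher at 0.92 and 0.99 (limma adjusted p = 0.0177 and 0.0206), and 2 gave 0.16 and 0.04 with no call. Direction for Tpm1 as a gene is therefore not given. In STAM-INS against Normal, Flna and the actin-binding caldesmon gene Cald1 (0.52, limma adjusted p = 0.0383) were called higher and the myosin light chain kinase gene Mylk (-0.49, limma adjusted p = 0.0363) lower. A second Cald1 probe gave 0.35 and was not called (limma adjusted p = 0.083). In STAM-NON the brightest Cald1 probe gave 0.45, which was not called (limma adjusted p = 0.0533). The same 2 Tpm1 probes were called higher in STAM-INS than in Normal (0.81 and 0.99, limma adjusted p = 0.0249 and 0.0195). Its other probes, the brightest at -0.25, were not called.

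**Figure D4:**
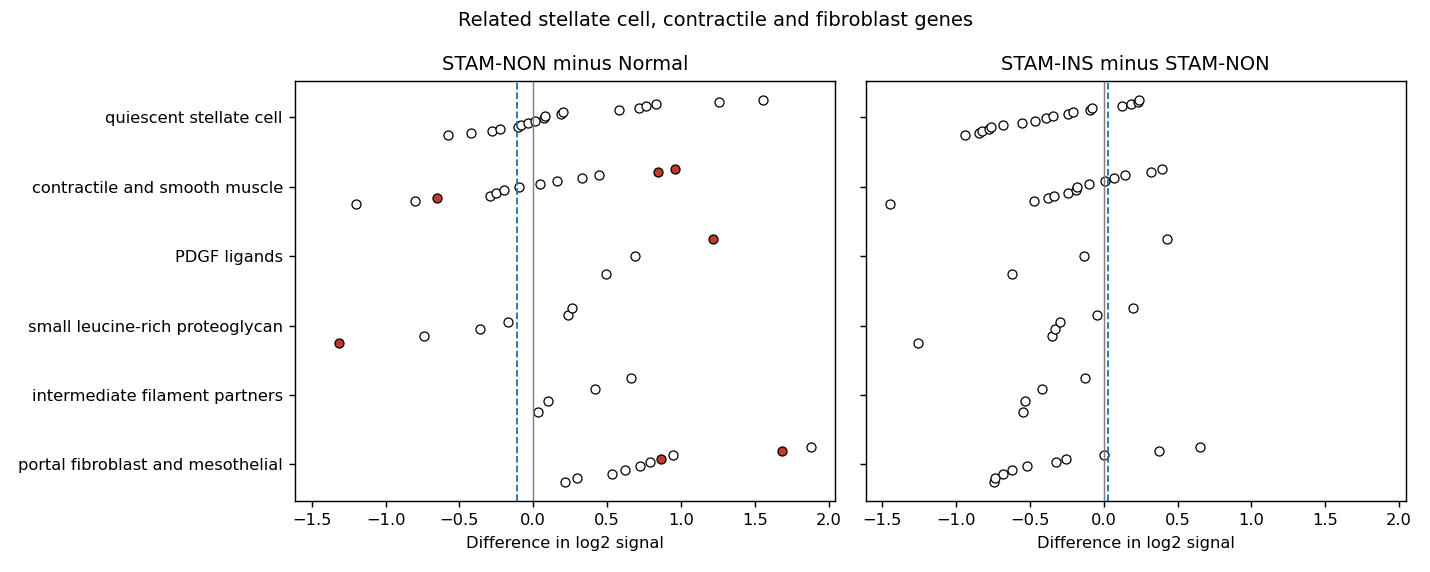
Differences on the log2 scale (horizontal axis) of single genes in 6 lists related to stellate cells and fibroblasts, for STAM-NON minus Normal (left) and STAM-INS minus STAM-NON (right); each circle is 1 gene on its brightest probe, filled where the limma adjusted p is under 0.05, and the dashed line is the median over all tested genes. All 10 portal fibroblast and mesothelial genes lie right of 0 in the left panel, and no circle is filled in the right panel.

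Lum and Dcn are small leucine-rich proteoglycans. Of 6 others tested, none was called higher and 1 lower in STAM-NON, against 16.1% of all probes called in either direction. Their median difference was -0.27. Ogn, which encodes osteoglycin, was -2.80, -2.35 and -2.37 in STAM-NON, -2.59, -3.37 and -2.44 in STAM-INS and -0.82, -0.97 and -1.78 in Normal. All 6 STAM livers were below the 3 Normal livers, by 1.32 ± 0.32 in the STAM-NON mean (limma adjusted p = 0.0301) and 1.61 ± 0.32 in the STAM-INS mean (limma adjusted p = 0.0168).

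Podn, which encodes podocan, was -0.51, -0.74 and -0.02 in STAM-NON, -1.37, -1.94 and -1.73 in STAM-INS and -0.61, -0.53 and -0.85 in Normal. Every STAM-INS liver was below every other liver. It was lower than Normal in STAM-INS by 1.02 ± 0.22 on the log2 scale (limma adjusted p = 0.0216), and the difference of STAM-INS from STAM-NON was -1.26 ± 0.22 (limma adjusted p = 0.187, not called). Bgn, which encodes biglycan, the close relative of decorin, differed from Normal by 0.26 in STAM-NON (limma adjusted p = 0.322).

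Of the 4 tested partner genes of the intermediate filaments, none was called on its brightest probe, although a second probe of Cryab, a small heat shock protein gene, exceeded its Normal level in STAM-NON by 0.65 (limma adjusted p = 0.0324), and the medians were 0.26 for STAM-NON minus Normal and -0.48 for STAM-INS minus STAM-NON. Synm, which encodes synemin, a partner of desmin and vimentin, differed between STAM-NON and Normal by 0.67 (limma adjusted p = 0.053). Of 10 tested portal fibroblast and mesothelial genes, 2 were called higher in STAM-NON, against 6.3% of all probes. All 10 were above 0, against 36.8% of all probes, with a median difference of 0.76. Fbln2, the portal matrix protein fibulin 2, was 0.85, -0.43 and 0.32 in STAM-NON, 0.40, -0.69 and -1.20 in STAM-INS and -1.44, -1.35 and -1.53 in Normal.

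The 6 STAM livers were above the Normal livers for Fbln2, and the difference was 1.69 ± 0.43 for STAM-NON (limma adjusted p = 0.0344) and 0.94 for STAM-INS (limma adjusted p = 0.165). Entpd2, an ectonucleotidase of portal fibroblasts, was higher in STAM-NON by 0.87 ± 0.23 (limma adjusted p = 0.0394). Clec3b, which encodes tetranectin, was higher in STAM-INS than in Normal by 1.19 (limma adjusted p = 0.038). Clec3b was well above background on 1 Normal array and 3 STAM-INS arrays and entered the test only through STAM-INS. Among the genes named from these lists, none kept its call with each of the 9 arrays left out in turn: Flna in STAM-NON kept it in 8 of the 9 fits, Ogn in STAM-INS in 6 and Cnn2 and Tpm1 in 1.

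Markers of other liver cells were counted in the same way. Of 8 tested macrophage markers, 4 were called higher in STAM-NON and 3 in STAM-INS than in Normal, against 6.3% and 5.16% of all probes. All 8 were above 0 in both, against 36.8% and 40.4% of all probes. Trem2, a lipid-sensing macrophage receptor, was higher in STAM-NON by 2.93 ± 0.48 (limma adjusted p = 0.0122) and in STAM-INS by 2.61 ± 0.48 (limma adjusted p = 0.0137). Cd5l, a protein of Kupffer cells, was higher by 1.33 (limma adjusted p = 0.0294) and 1.14 (limma adjusted p = 0.0477). Clec4f, a Kupffer cell lectin, was higher by 0.97 in both STAM-NON (limma adjusted p = 0.042) and STAM-INS (limma adjusted p = 0.0454). Gpnmb, a glycoprotein of lipid-laden macrophages, cleared the background on none of the Normal and all 3 of the STAM-NON arrays. The difference was at least 4.32-fold. Gpnmb entered the test only through STAM-NON. Its limma adjusted p of 0.0186 belongs to the measured difference, with Normal values not above background, and not to this bound. With each array left out in turn, Trem2 was called in all 9 fits for STAM-NON and in 7 for STAM-INS, Gpnmb in 5, Cd5l in 4 and 1, and Clec4f in 1 for STAM-INS. The Clec4f call in STAM-NON was not followed through these fits.

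The summed macrophage signal was 308, 179 and 306 times the 75th percentile in STAM-NON, 147, 349 and 225 times in STAM-INS and 124, 84.4 and 128 times in Normal. STAM-NON replicate 2, the low liver of Lum, Postn, Vim and the PDGF receptors, was thus the low liver of its group here as well. STAM-INS replicate 2 had the highest macrophage sum of all, and its Vim (2.16) and Lum (1.78) were below those of STAM-NON replicates 1 and 3. What part macrophage RNA has in the Vim difference was not tested.

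Of 8 tested endothelial markers 1 was called, Lyve1, a hyaluronan receptor of sinusoidal endothelium that some macrophages also carry, higher in STAM-NON by 3.01 ± 0.66 (limma adjusted p = 0.024). In STAM-INS Lyve1 was higher by 2.06, which was not called (limma adjusted p = 0.07). The endothelial sum was 65.0 to 91.3 in STAM-NON, 43.2 to 83.2 in STAM-INS and 74.7 to 82.1 in Normal. Of 5 tested biliary markers, the keratin gene Krt7 (1.55, limma adjusted p = 0.0346, above background on 1 Normal array) and the transcription factor gene Sox9 (0.96, limma adjusted p = 0.0176) were called higher in STAM-NON, and Sox9 in STAM-INS (1.57, limma adjusted p = 0.00338). Krt7 was higher by 1.33 in STAM-INS, which was not called (limma adjusted p = 0.0567). Of 8 hepatocyte markers, which checked the tissue and were well above background on all 9 arrays, Tdo2, a tryptophan-degrading enzyme, was lower in STAM-INS by 0.93 (limma adjusted p = 0.0297), and the sum was 5009 to 6227 in STAM-NON, 5479 to 6137 in STAM-INS and 6641 to 7145 in Normal. Tdo2 differed from Normal by -0.715 in STAM-NON, which was not called (limma adjusted p = 0.0569). With each array left out in turn, Sox9 was called in 7 of 9 fits for STAM-NON and in 9 for STAM-INS, Lyve1 in 4, Krt7 in 3 and Tdo2 in 4. A second probe of the hepatocyte gene Cyp2e1 was lower in STAM-NON (-1.32, limma adjusted p = 0.0446) and in STAM-INS (-1.41, limma adjusted p = 0.0397) than in Normal. None of 4 tested neutrophil markers was called, nor was the 1 tested B cell marker. The neutrophil sum was 141 to 304 in STAM-NON, 140 to 156 in STAM-INS and 122 to 151 in Normal. In Normal it came mostly from Csf3r, which differed by -0.03 in STAM-NON. S100a8, S100a9 and Retnlg differed from Normal by 3.12, 3.09 and 2.87 in STAM-NON (limma adjusted p = 0.108, 0.0867 and 0.133). In STAM-INS the differences were 2.31, 2.32 and 2.15. STAM-NON replicate 3 was the highest liver for each of them, and Retnlg entered the test only through STAM-INS. The part of these cells in the marker differences was not tested.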

How the data were processed

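Liver total RNA of 9 mice was hybridised, labelled with Cy3, to 1-colour Agilent mouse arrays. The labels and the study's methods name different extraction kits. The intensity values deposited by the authors are the output of Feature Extraction 11.5.1.1 (processed signal, and median spot and local background intensity), not normalised between arrays, on a linear scale. Groups and replicate numbers came from the labels. The array design was on mm9. Probe names came from a RefSeq table of GRCm38.p6 (names only), which named 27656 of 55681 probes, and promoter windows from RefSeq in the same assembly.

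Processed signals were log2 transformed and the 75th percentile over non-control spots of the array was subtracted. Control and outlier-flagged spots (161 to 217 flagged per array) were left out, and the spots of a probe were averaged. Acta2, Des and Pdgfra were printed at 10 spots, and no spot was saturated. Probes entered the test when a share of 0.5 or more of their spots was well above background on every array of some group. limma 3.58.1 in R 4.3.3 (lmFit, eBayes, two-sided) was fitted to all 9 arrays with 6 residual degrees of freedom, and p-values were adjusted by Benjamini-Hochberg over 26278 probes. The code was tested on simulated data. With 3 mice per group, the number of arrays limits the precision. For a gene not above background in a group, the bound was the brighter group's mean over the dimmer group's mean of the higher, per array, of the lowest detected signal and the gene's own.

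All 10 markers are named, with up to 4 called genes of each related list (quiescent stellate, contractile, PDGF ligands, small leucine-rich proteoglycans, intermediate filament partners, portal fibroblast and mesothelial), all PDGF ligands, and up to 3 called genes of each list for other cells (hepatocyte, endothelial, macrophage, T and NK, B, neutrophil, biliary). Lrat, Bgn, Synm, Cnn1, Actg2, Myh11, Tpm2, Vipr1, Ecm1, Cryab, Cyp2e1, Nkg7, Cd4, Csf3r, S100a8, S100a9 and Retnlg were named outside this rule after their values were seen. So were the value of Clec4f in STAM-NON and the differences not called of Lyve1, Krt7, Tdo2, Cald1 and Angptl6. For genes with several probes the brightest was used. The markers and lists were chosen with earlier results of these data known. Alternatives were normexp background correction (offset 50, on median signals because mean signals are not used here), quantile normalisation, other percentiles, spike-in centring, other filters, other fits, blocks for replicate number and slide row, and leaving out arrays.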

Additional observations from a re-analysis of the deposited data

How the results depend on the processing

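With 3 mice per group, the number of markers called between STAM-NON and Normal, 2 in the reported fit, was sensitive to the settings. It was 1 with quantile normalisation and 4 with centring on E1A spike-ins (Lum, Vim, Postn and Thy1). It was 0 with no filter on dim probes and 0 with only the 2 groups compared. It was 0 with the slide row as a block, where 15 of all probes were called, since STAM-NON and Normal arrays occupied different rows throughout. With that block the difference fell to 0.005 for Thy1 and 0.22 for Pdgfrb and rose to 1.43 for Lum and 1.56 for Postn. The fit without the 3 arrays with most spots above background was chosen after seeing the data. That fit left STAM-NON with replicate 2 alone and is not counted. The number of markers called ran from 0 to 6 with single arrays left out. It was 1 with the replicate number as a block, and 2 or 3 with normexp, the percentile over detected probes, probes detected on all arrays and the trended robust fit. Without a filter, 250 probes were called in all, against 4220. For both comparisons of STAM-INS the count was 0 in every alternative.

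Lum passed in 10 of 20 alternatives (limma adjusted p 0.0101 to 0.27), Postn in 5 of 20 (0.00866 to 0.472) and Vim in 5 of 20 (0.016 to 0.605). Signs turned in 19 of 600 values. For STAM-NON minus Normal, Acta2 gave 0.078 with the percentile over detected probes, 0.22 with E1A centring, 0.81 without the 3 arrays and -0.55 to 0.34 with single arrays left out (0.33 without STAM-NON replicate 1, 0.34 without Normal replicate 2), and Pdgfra gave -0.079 without the 3 arrays. For STAM-INS minus STAM-NON, Acta2 gave 0.56 and Thy1 0.057 with the row block, Acta2 -0.54 to 0.34 with single arrays left out (0.20 without STAM-INS replicate 2), and Vim 0.002 and Postn 0.22 without the 3 arrays. For STAM-INS minus Normal, with single arrays left out, Acta2 ran from -0.56 to 0.23 (0.10 without STAM-INS replicate 2), Des from -0.01 (-0.005 without STAM-INS replicate 3) to 0.40 and Pdgfra from -0.31 to 0.028, and Dcn gave 0.081 with quantile normalisation, 0.002 with the percentile over detected probes and 0.035 with E1A centring. The cause was not tested.

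The reported fit did not treat the replicate numbers as pairs. Deviations of same-numbered arrays correlated between -0.29 and 0.15 (9 pairs) and those of other arrays between -0.19 and 0.28 (18 pairs). These correlations cannot show whether the samples were paired by design. With the replicate number as a block, 1 marker was called between STAM-NON and Normal (Pdgfrb, limma adjusted p = 0.0394), and Lum (0.0669) and Postn (0.0788) were not. Averaging several tested probes of a marker was not run, since each marker has 1 probe.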
